A study of Mus musculus with 18 samples.

Results

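The genes described here are 9 markers of striatal compartments, 5 that mark the striosomes (Kremen1, Sema5b, Bach2, Lypd1 and Tshz1) and 4 that mark the matrix (Calb1, Epha4, Id4 and Cdh8). They were chosen by name as 9 of the 29942 genes listed, and all 9 are among the 13975 genes tested, those with a mean of at least 1 FPKM (the number of fragments relative to the length of the transcript and the size of the library). The mice were 129Sv/Jae S4 siblings, housed in groups and matched for age and sex, neither of which the labels state. Each of 18 mice gave 1 library of polyadenylated RNA from its left and right striatum, dissected above the level of the anterior commissure. Injections were intraperitoneal. On each of days 1, 7 and 21, 3 mice had received 0.9% saline, and 3 had received D-amphetamine hemisulfate dissolved in 0.9% saline, in 10 ml/kg and at 7 mg/kg in total per day. How long after the last injection the tissue was taken is not stated in those labels.

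The striatum is a mosaic of striosomes, also called patches, embedded in a larger matrix. Projection neurons of both compartments share most of their genes. Striosomes are rich in the mu-opioid receptor and poor in calbindin, receive much limbic cortical input and contact dopamine neurons of the midbrain, whereas the matrix receives mainly sensorimotor and associative input. Repeated psychomotor stimulants have been linked to a shift of early gene induction between the compartments. The labels' design compared drug with vehicle on each day, and the markers below were read in that frame. In dissected tissue, fewer cells of a type and less RNA per cell cannot be told apart.

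The deposited values summed to between 533020 and 682270 FPKM per library, and the numbers of reads are unknown. Drug exposure was visible in Fos and Btg2, which nerve cell activity induces. Fos lay between 2.75 and 7.38 FPKM in the 9 saline mice and between 16.1 and 36.8 FPKM in the 9 amphetamine mice, and Btg2 between 1.56 and 3.50 and between 5.79 and 15.7 FPKM. Their differences over the mean of the 3 days were 1.98 (SE 0.16) and 1.58 (SE 0.12) on the log2(FPKM + 1) scale, with adjusted p = 4.911e-05 and 2.738e-05 in limma. General projection neuron markers were all detected in every library, with a summed level of 2787 to 3645 FPKM.

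All 9 markers had a value above 0 in every library. Averaged over the 18 libraries, Id4 had the highest level (128 ± 12.4 FPKM, SD), followed by Calb1 (91.5 ± 13.5), Epha4 (45.0 ± 2.25), Cdh8 (30.9 ± 2.77), Lypd1 (21.7 ± 3.83), Tshz1 (8.34 ± 1.27), Kremen1 (7.52 ± 1.09), Sema5b (2.85 ± 0.761) and Bach2 (1.55 ± 0.322). Thus the 4 matrix markers stood above the 5 striosome markers in this order. Within single libraries neighbours kept the order in 18 of 18, except Sema5b above Bach2 in 17 of 18 and Tshz1 above Kremen1 in 9 of 18. The levels of Tshz1 and Kremen1 therefore did not differ beyond their spread. The ranges over mice overlapped also between Id4 and Calb1, between Cdh8 and Lypd1, and between Sema5b and Bach2. FPKM are scaled to transcript length. The annotation behind those lengths is not stated, so levels of different genes can be set side by side only roughly.

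**Figure D1:**
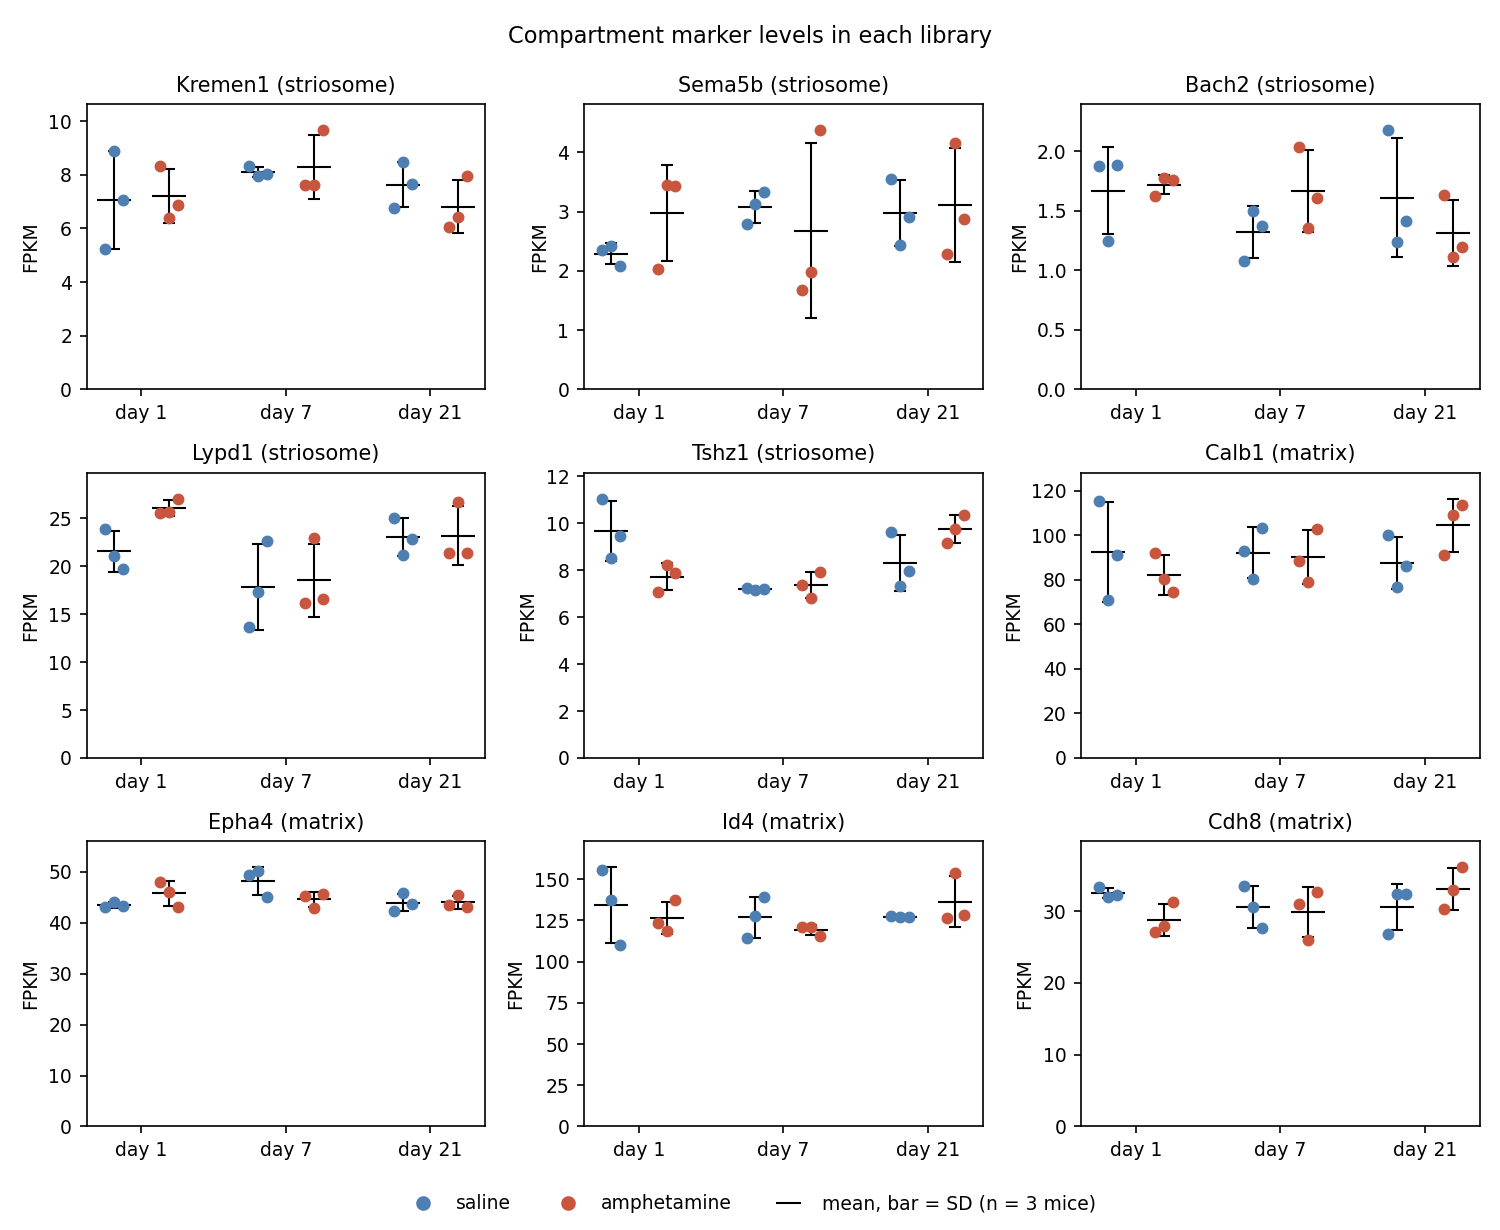
FPKM of each marker in each of the 18 libraries, by day and treatment, with saline in blue and amphetamine in red. Points are mice, horizontal lines are means and bars are SDs (n = 3). Saline and amphetamine points are separate on day 1 for Lypd1, Tshz1 and Cdh8, and overlap in all other panels and days.

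None of the 9 markers passed the threshold (limma on log2(FPKM + 1), Benjamini-Hochberg adjusted p under 0.05 over all tested genes) on day 1, day 7, day 21 or in the mean of the 3 days. Few genes of any kind did: 0.00716% of tested genes on day 1, 0.0215% on day 7, 0% on day 21 and 0.122% in the mean of the 3 days. The markers' smallest adjusted p values were 0.6658, 1, 0.8689 and 0.999, respectively. At an unadjusted p under 0.05, 1 marker passed on day 1, 0 on day 7, 1 on day 21 and 0 in the mean, beside 7.25%, 4.92%, 5.50% and 5.36% of all tested genes. The single marker was Tshz1 on both days.

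Tshz1, a teashirt family zinc finger transcription factor, was measured on day 1 at 11.04, 8.52 and 9.45 FPKM in the saline mice and at 7.08, 8.21 and 7.89 FPKM in the amphetamine mice. Every amphetamine mouse lay below every saline mouse. The difference was -0.29 on the log2 scale (SE 0.097, 95% interval -0.49 to -0.08, unadjusted p = 0.01018, adjusted p = 0.6658 in limma). On day 7 the saline mice had 7.23, 7.16 and 7.22 FPKM and the amphetamine mice 7.37, 6.83 and 7.92 FPKM, which overlapped, with a difference of 0.03. On day 21 the values were 9.64, 7.32 and 7.96 FPKM after saline and 9.15, 9.77 and 10.3 FPKM after amphetamine. Here 1 saline mouse lay among the amphetamine mice and 2 lay below all of them, and the difference was 0.21 (95% interval 0.01 to 0.42, unadjusted p = 0.0428, adjusted p = 0.8689 in limma). The treatment difference on day 21 was thus 0.50 higher than on day 1 (SE 0.14). The interaction of treatment and day gave F = 6.86 with an unadjusted p of 0.008165, the smallest of the 9 markers, and an adjusted p of 0.7734 in limma. Leaving out the first saline mouse of day 1 brought the day 1 difference to -0.20 (unadjusted p = 0.0652). The day 21 difference was 0.14 without the second saline mouse of that day (unadjusted p = 0.1968) and 0.18 without the third amphetamine mouse (unadjusted p = 0.1319), and its unadjusted p was 0.09619 when only the 6 mice of day 21 were fitted. Tshz1 is also made by cortical neurons. The mean log2 level of the 6 tested of 11 cortical glutamatergic markers differed by -0.49 between the treatments on day 1 (pooled SD 0.46, groups overlapping) and by -0.19 on day 21, and its part in the Tshz1 values was not tested.

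Lypd1, a membrane-anchored protein of the Ly6 family that modulates nicotinic acetylcholine receptors, had 23.9, 21.1 and 19.7 FPKM in saline mice and 25.5, 25.6 and 27.1 FPKM in amphetamine mice on day 1. The amphetamine mice were all higher. The log2 difference was 0.26 (SE 0.16, 95% interval -0.07 to 0.60, adjusted p = 0.6847 in limma). On day 7 the levels were 13.6, 17.4 and 22.6 FPKM after saline and 16.1, 22.9 and 16.6 FPKM after amphetamine, and on day 21 they were 25.1, 21.1 and 22.9 FPKM and 21.4, 26.7 and 21.4 FPKM. The treatments overlapped on both later days, with log2 differences of 0.06 and 0.01. Oligodendrocyte precursor markers were 7 genes with a summed level of 42.0 to 69.4 FPKM over the libraries. Their mean log2 level was 0.15 higher in amphetamine than in saline mice on day 1, without overlap. It was 0.03 higher with overlap on day 7. On day 21, where Lypd1 differed by 0.01, it was again higher without overlap, by 0.07 (pooled SD 0.037). The 3 tested of 6 choroid plexus markers had a mean 1.06 higher on day 1, without overlap. On days 7 and 21 it was 0.36 and 0.007 higher, with overlap. Septal and pallidal markers had a mean 0.21, 0.19 and 0.06 higher on days 1, 7 and 21, with overlap on each day. The part of such tissue in the Lypd1 values was not tested.

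The 3 other striosome markers overlapped between treatments on every day. Kremen1, a receptor for Dickkopf proteins that limits Wnt signalling, spanned 5.23 to 9.66 FPKM over the 18 mice. Its saline mice on day 7 lay within 7.97 to 8.32 FPKM, while those of day 1 ran from 5.23 to 8.87 FPKM. Its log2 differences were 0.04, 0.02 and -0.15 on days 1, 7 and 21, and the first of these changed sign under both other scalings of the values. Sema5b, a transmembrane semaphorin that guides axons, spanned 1.68 to 4.37 FPKM, and both extremes were amphetamine mice of day 7 (1.68, 1.97 and 4.37 FPKM). Its log2 differences were 0.25, -0.22 and 0.03 on days 1, 7 and 21. The first was about as large as that of Lypd1, with a wider 95% interval of -0.25 to 0.75, and ran from 0.16 to 0.43 over the other settings. The second became -0.53 without the third of these mice and -0.03 without the first. Bach2, a basic leucine zipper repressor that pairs with small Maf proteins, lay between 1.08 and 2.17 FPKM, with log2 differences of 0.04, 0.20 and -0.16. The first difference was -0.003 with quantile normalization, and the highest value belonged to a saline mouse of day 21.

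Among the matrix markers, Cdh8, a type II cadherin of cell adhesion, had 33.3, 32.0 and 32.3 FPKM in saline mice and 27.1, 27.9 and 31.3 FPKM in amphetamine mice on day 1. All 3 amphetamine mice were lower, 1 of them only just. The log2 difference was -0.18 (SE 0.10, 95% interval -0.39 to 0.04, adjusted p = 0.68 in limma), and it was -0.03 on day 7 and 0.11 on day 21, with overlap. With Lypd1 higher and Tshz1 and Cdh8 lower, 3 of the 9 markers had groups that did not overlap on day 1, beside 10.6% of all tested genes (7.73% with amphetamine higher and 2.91% with amphetamine lower). None did on day 7, beside 10.3% of tested genes (5.45% higher and 4.86% lower), or on day 21, beside 12.3% (4.76% higher and 7.51% lower).

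Calb1 encodes calbindin, the calcium buffer whose protein is the classical stain for matrix. On day 1 it measured 115, 70.9 and 91.4 FPKM after saline and 91.9, 80.3 and 74.4 FPKM after amphetamine. The first saline mouse was the highest of all 18, and without it the day 1 difference went from -0.15 to 0.02. On day 21 it measured 99.99, 76.8 and 86.0 FPKM after saline and 91.0, 109 and 114 FPKM after amphetamine, so that 2 amphetamine mice exceeded all saline mice of that day. That difference was 0.25 (SE 0.16, 95% interval -0.10 to 0.61, adjusted p = 0.8778 in limma). Day 7 lay between, at -0.03.

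Epha4, a receptor tyrosine kinase for ephrins, was the steadiest marker. It stayed between 42.4 and 50.1 FPKM over the 18 mice, and its residual SD of 0.06 on the log2 scale was at percentile 5.08 among genes of its expression decile. On day 7 it had 49.3, 50.1 and 45.0 FPKM after saline and 45.2, 42.8 and 45.7 FPKM after amphetamine, with overlap through 1 saline mouse. The difference was -0.11 (95% interval -0.22 to 0.01, unadjusted p = 0.0605, adjusted p = 1 in limma). Id4, an inhibitor of basic helix-loop-helix factors that astrocytes also make, ranged from 110 to 155 FPKM, both extremes being saline mice of day 1. Its log2 differences were -0.08, -0.09 and 0.09. Its values after saline on day 21 were within 127.0 to 127.5 FPKM, against 126, 154 and 128 FPKM after amphetamine. Relative to its mean, that saline group was the closest of any marker (SD 0.195% of the mean).

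Averaging the 3 days narrowed the intervals. The mean differences ran from -0.03 (Cdh8) to 0.11 (Lypd1, 95% interval -0.09 to 0.31), and the half-widths of the 95% intervals from 0.07 (Epha4) to 0.29 (Sema5b) on the log2 scale. For Epha4 the interval was -0.08 to 0.05 and for Tshz1 -0.13 to 0.11. For Sema5b it was -0.27 to 0.31, so larger mean differences in either direction remain possible for this marker than for those.

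**Figure D2:**
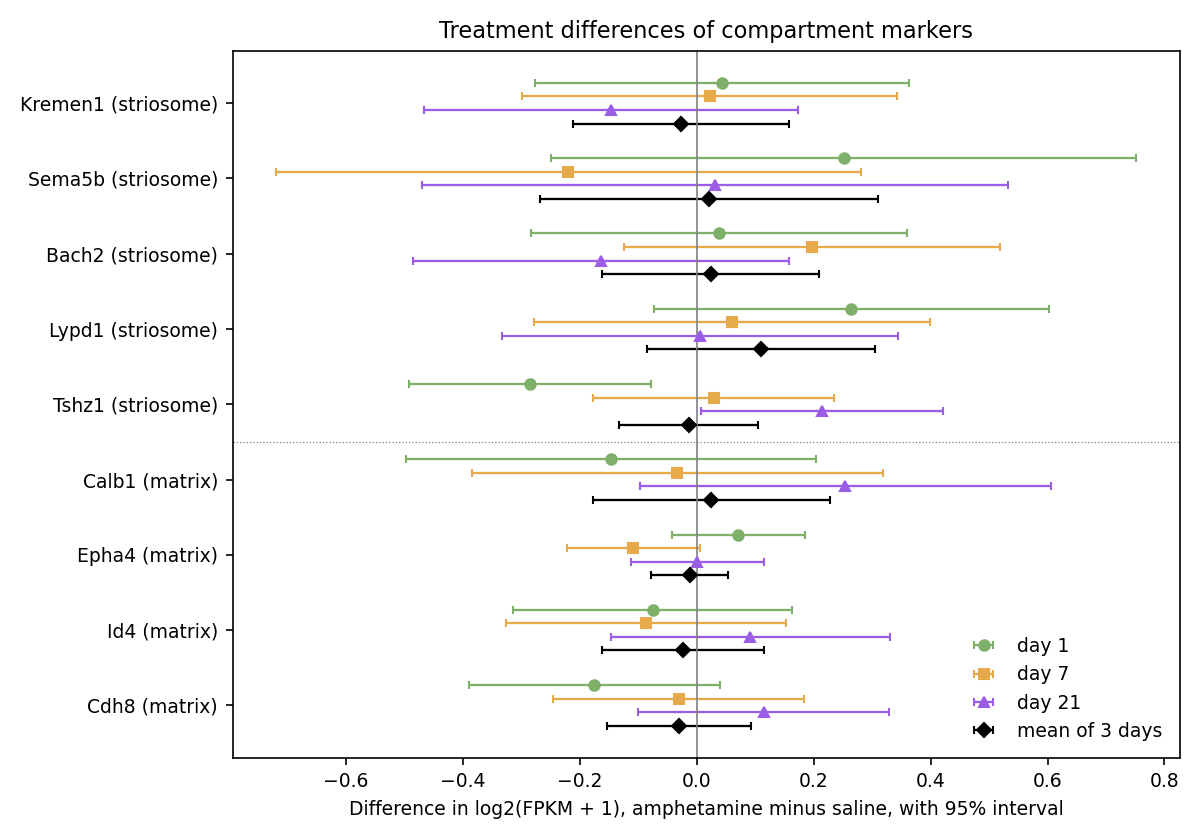
Amphetamine minus saline differences in log2(FPKM + 1) for each marker (vertical axis) on days 1, 7 and 21 and in the mean of the 3 days, with 95% intervals from limma. Every interval spans 0 except those of Tshz1 on day 1 (-0.49 to -0.08) and on day 21 (0.01 to 0.42).

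The day itself was compared within each treatment. The sample numbers in the labels, whose meaning is not stated, differed between the days. On day 1 they were 6500 to 6504, except 6377 for the first saline mouse. Those of day 7 ran from 6388 to 6450 and those of day 21 from 6383 to 6486. Differences between days therefore cannot be fully told apart from differences that go with these numbers. In saline mice 0 of the 9 markers passed, beside 0.00716% of tested genes, and in amphetamine mice 0 passed, beside 0%. No marker passed for the interaction of treatment and day either, beside 0% of genes (smallest adjusted p 0.7734 in limma). At an unadjusted p under 0.05 the counts of markers were 2, 2 and 1, beside 5.95%, 11.2% and 6.25% of tested genes. In saline mice these were Tshz1, whose level was 0.37 lower on the log2 scale on day 7 than on day 1 (-0.37, SE 0.097), and Epha4, which was 0.14 higher. Adjusted p values were 0.7589 and 0.8038 in limma. In amphetamine mice they were Tshz1 again, 0.30 higher on day 21 than on day 1 (adjusted p = 0.3256 in limma), and Lypd1, with a day 7 minus day 1 difference of -0.49 (adjusted p = 0.4034 in limma). The day 7 mice of both treatments thus held the lowest Lypd1 means, 17.9 ± 4.51 and 18.5 ± 3.80 FPKM (SD, n = 3), against 21.6 ± 2.14 and 26.1 ± 0.860 FPKM on day 1.

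As compartments, the striosome markers were higher after amphetamine in 4 of 5 genes on day 1 (3 and 2 of 5 with median-of-ratios scaling and quantile normalization), 4 of 5 on day 7 and 3 of 5 on day 21, with median log2 differences of 0.04, 0.03 and 0.01. The matrix markers were higher in 1 of 4, 0 of 4 and 4 of 4 genes, with the same counts under both scalings, with medians of -0.11, -0.06 and 0.10. Over all tested genes the medians were 0.05, 0.00 and -0.02. The mean log2 level of the matrix markers differed by -0.08, -0.06 and 0.12 between treatments on the 3 days, with pooled SDs between mice of 0.093, 0.068 and 0.068. That of the striosome markers differed by 0.06, 0.02 and -0.01, with pooled SDs of 0.048, 0.12 and 0.11. The matrix difference on day 21 and the striosome difference on day 1 thus exceeded their pooled SDs. The latter, 0.06, lay near the day 1 median of all tested genes, which was 0.05 as deposited and 0 under both scalings. Both compartment means overlapped between the treatments on every day. The striosome mean minus the matrix mean was -3.23 after saline and -3.09 after amphetamine on day 1, and -3.30 and -3.21 on day 7, with overlap. On day 21 it was -2.99, -3.23 and -3.18 in the saline mice and -3.24, -3.26 and -3.28 in the amphetamine mice. The amphetamine mice were all lower there, the nearest pair by a margin of less than the spread within the saline group. These means are a description of a short list and carry no test.

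**Figure D3:**
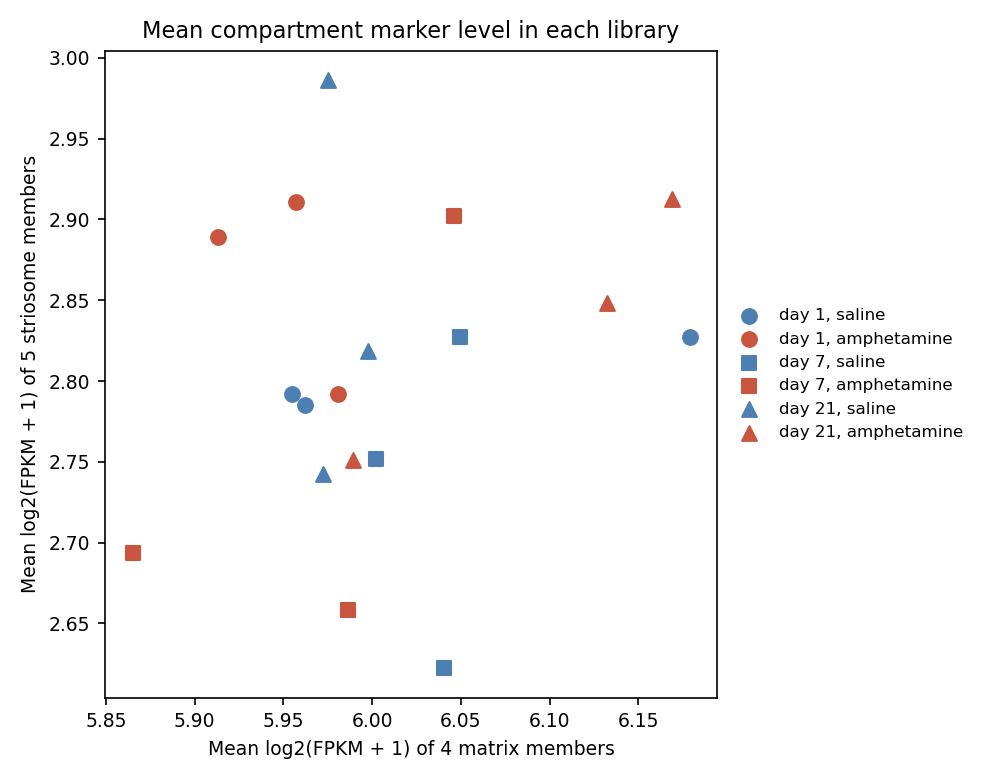
Mean log2(FPKM + 1) of the 5 striosome markers (vertical axis) against that of the 4 matrix markers (horizontal axis) in each of the 18 libraries, with the day as symbol and the treatment as colour. Saline and amphetamine mice are intermixed on both axes. To the right lie 2 of the 3 amphetamine mice of day 21 (6.17 and 6.13) and, farthest right, a saline mouse of day 1 (6.18).

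Other genes reported to be enriched in striosomes were read beside the members. Of 12 such genes 11 were tested, since Col11a1 had a mean of 0.909 FPKM. In the mean of the 3 days 8 of the 11 were higher after amphetamine, with a median log2 difference of 0.06 (7 of the 11 and 0.05 with median-of-ratios scaling), and 1 passed the threshold. By day, 5, 6 and 8 of the 11 were higher on days 1, 7 and 21, with medians of -0.02, 0.01 and 0.20 (5, 5 and 9 with medians of -0.07, -0.002 and 0.22 under median-of-ratios scaling). Their mean log2 level was 0.21 higher after amphetamine both on day 7 (pooled SD 0.059) and on day 21 (pooled SD 0.076), without overlap, and 0.05 higher with overlap on day 1. Without Nr4a1, described next, these differences were 0.13, 0.15 and -0.02 on days 7, 21 and 1, and the groups overlapped on each day. Without both Nr4a1 and Pdyn they were 0.07 (pooled SD 0.070), 0.11 (pooled SD 0.097) and -0.001 on the same days, also with overlap. The gene past the threshold was Nr4a1, an orphan nuclear receptor that marks striosomes and is also an activity-induced gene, so that it stands among the immediate-early genes as well. Nr4a1 lay between 20.2 and 36.6 FPKM in the 9 saline mice and between 38.1 and 81.1 FPKM in the 9 amphetamine mice, and rose by 0.86 on the log2 scale (SE 0.15, adjusted p = 0.04879 in limma). Its adjusted p passed the threshold in 6 of 26 other settings, and the largest was 0.1747. Immediate-early genes as a group were higher in 12 of 12 genes, 10 of which passed.

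Pdyn, the precursor of dynorphin and a marker of striosomal and direct pathway neurons, was not past the threshold on any day. Its 3 saline and 3 amphetamine mice had 67.5, 66.4 and 57.2 against 54.0, 52.0 and 60.8 FPKM on day 1. On day 7 they had 32.1, 47.8 and 45.9 against 62.7, 70.8 and 59.8 FPKM, and on day 21 54.0, 46.6 and 48.4 against 65.6, 74.7 and 74.5 FPKM. Amphetamine mice were all higher on days 7 and 21, and overlapped with saline mice on day 1. The log2 differences were -0.19, 0.63 and 0.52, with adjusted p = 0.6948, 0.2367 and 0.769 in limma, and the mean difference was 0.32 (adjusted p = 0.2653). Oprm1, the mu-opioid receptor gene, was low, at 0.545 to 3.29 FPKM over all mice, and had a mean difference of 0.13 (adjusted p = 0.999 in limma). The calcium-regulated exchange factor gene Rasgrp1 differed by -0.10 (adjusted p = 0.8646 in limma) and the imprinted neuronatin gene Nnat by 0.34 (adjusted p = 0.9299 in limma).

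Of 10 other matrix-enriched genes, all tested, 5 were higher and 5 lower in the mean of the 3 days, with a median of -0.01 (4 higher with median-of-ratios scaling) and 0 past the threshold in limma (1 at an unadjusted p under 0.05). The lowest p belonged to the neuropeptide gene Sst, with a difference of 0.15 (adjusted p = 0.8377 in limma). Sgk1, a kinase induced by glucocorticoids, differed by 0.18, the synaptic vesicle protein gene Sv2b by -0.10 and the guanine deaminase gene Gda by 0.14, none past the threshold. Sv2b on day 1 had 33.8, 38.3 and 32.4 FPKM after saline and 25.5, 27.5 and 26.4 FPKM after amphetamine, without overlap. Its difference was -0.38 (adjusted p = 0.6658 in limma), the lowest of the list on that day. On day 1, 8 of the 10 other matrix-enriched genes were higher, with a median of 0.05, but 5 of 10 with median-of-ratios scaling and 6 of 10 with quantile normalization.

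Markers of the same compartment had correlations of either sign from mouse to mouse. Over the 18 libraries Pearson's r among the 10 striosome pairs ran from -0.61 to 0.33 with a median of 0.11, among the 6 matrix pairs from -0.24 to 0.27 with a median of 0.08, and among the 20 mixed pairs from -0.56 to 0.58 with a median of 0.05. These are descriptions over libraries that share their depth, dissection and treatment, and no test was made of the differences between the medians.

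Against lists of other cell types and neighbouring tissue, single markers differed widely. Calb1 was lower where astrocyte markers were higher, with r = -0.76 (rho = -0.81, n = 18) over all libraries and r = -0.79 and -0.81 within the lowest and the highest of 3 ranges of the sample numbers in the labels, 7 libraries each. It was also lower where oligodendrocyte markers were higher, with r = -0.62 over all libraries and -0.75 and -0.58 within these ranges. The summed level of the 10 astrocyte markers ran from 667 to 854 FPKM. Lypd1 had r = 0.79 (rho = 0.62) with oligodendrocyte precursor markers, and 0.72 and 0.78 within the same ranges. This r was 0.56 without the 2 libraries farthest from the median and 0.60 once group means were removed. With choroid plexus markers Lypd1 had 0.30 over all libraries, but -0.40 once group means were removed. With septal and pallidal markers it had 0.71 over all libraries, and 0.85 and 0.45 within the ranges. Without the 2 libraries farthest from the median it had 0.53 with these markers, and 0.71 once group means were removed. With general projection neuron markers it had -0.68 over all libraries, but -0.92 in the lowest range and -0.22 in the highest. Kremen1 had r = 0.67 (rho = 0.68) with general projection neuron markers (0.63 and 0.47 within the ranges), and Cdh8 had -0.63 with septal and pallidal markers (-0.68 and -0.71). Tshz1 had r = 0.58 with the other striosome-enriched genes (0.63 and 0.28 within the ranges) and 0.54 with cortical glutamatergic markers, the latter falling to 0.23 once group means were removed. For Epha4 and general projection neuron markers r was 0.56 over all libraries, but 0.95 and -0.59 within the lowest and the highest range of sample numbers. Id4 showed r = 0.01 with the astrocyte markers. The 108 correlations of 9 markers with 12 lists are given without p values.

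**Figure D4:**
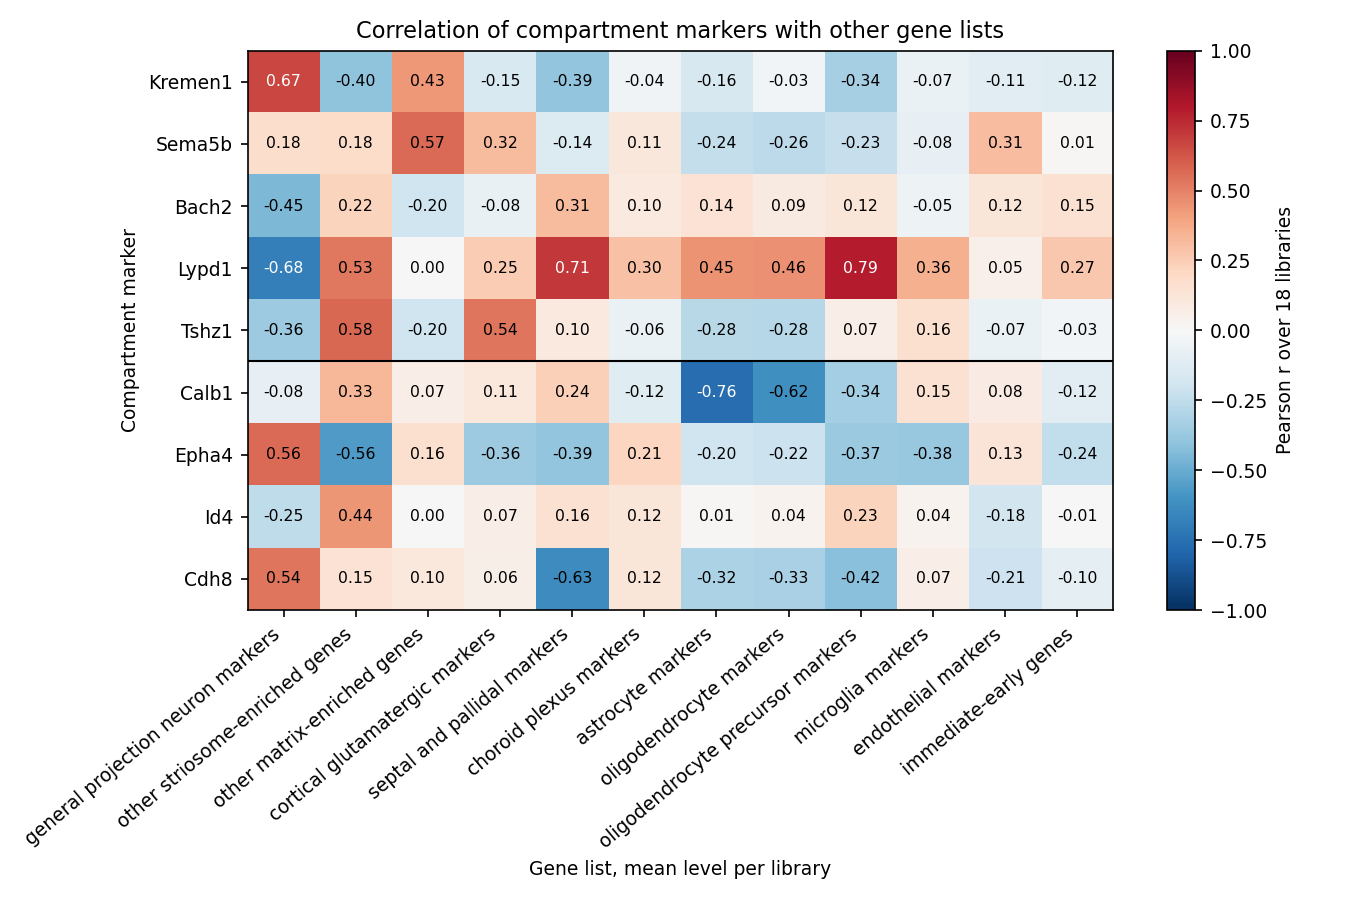
Pearson's r over 18 libraries between log2(FPKM + 1) of each marker (rows, striosome markers above the line and matrix markers below) and the mean log2(FPKM + 1) of the tested genes of each of 12 lists (columns), with the colour running from -1 in blue to 1 in red. The strongest values are 0.79 for Lypd1 with oligodendrocyte precursor markers and -0.76 for Calb1 with astrocyte markers.

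The genes whose levels followed each marker most closely over the 18 libraries were sought among genes with a mean of at least 5 FPKM. For Kremen1 these were Grin1 (r = 0.92), Lphn1 (0.91) and Adcy5 (0.90), a glutamate receptor subunit, an adhesion receptor and the main adenylyl cyclase of striatal neurons. For Tshz1 they were Hpcal4 (0.94), Celf4 (0.92) and Cadm1 (0.91), and for Lypd1 Nnat (0.90), Gnas (0.89) and Elp2 (0.88). Nnat is itself in the list of other striosome-enriched genes. Calb1 was nearest to Prkca (0.90), Negr1 (0.87) and Hs6st2 (0.86), Epha4 to Adam23 (0.85), Pde10a (0.75) and Plcb1 (0.74), and Cdh8 to Foxp2 (0.83), D0H4S114 (0.83) and Foxo1 (0.81). Foxp2 is listed with the striosome-enriched genes although Cdh8 marks matrix. For Id4 the nearest were Hmgn3 (0.75), Nxt2 (0.74) and Tmed7 (0.73), for Bach2 Btbd10 (0.83), Ep400 (0.71) and Mir101a (0.70), and for Sema5b AW209491 (0.71), AI480653 (0.65) and AK007011 (0.65). Candidates were ranked by r alone, out of 9451 genes (9452 for Sema5b and Bach2), so the values are high by selection.

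Promoter windows from RefSeq (GRCm38.p6, 250 bases before to 50 after the start of transcription) were read for 6 of the 9 markers, Epha4, Lypd1, Bach2, Cdh8, Id4 and Sema5b, in 8 windows, 3 of them for Lypd1. No window was read for Kremen1, Tshz1 or Calb1, so nothing can be said of motifs in their promoters. The motifs searched, on both strands, were the full cAMP response element TGACGTCA, the AP-1 site TGANTCA bound by Fos and Jun proteins, and the E-box CACGTG. None of the 6 markers had the first (1.79% of 32851 windows did) or the second (7.81%), and Lypd1 alone had the third, in 1 of its windows at base -32 (7.15%). Among the 9 immediate-early genes with a window, Btg2 and Dusp1 had TGACGTCA, at bases -166 and -143. As with the markers, none of these 9 genes had the AP-1 site, and Egr2 and Dusp1 had CACGTG. A match of letters is not a binding site, and its absence says only that the letters are not in the window. The 150 bases before the start are shown for the steadiest marker, for the marker with the E-box and higher day 1 values, and for the induced gene Dusp1 for comparison, with these motifs in capitals. The first lies at chr1:77515089-77515238, minus strand, the second at chr1:125912215-125912364, minus strand, and the third at chr17:26508473-26508622, minus strand.
Epha4: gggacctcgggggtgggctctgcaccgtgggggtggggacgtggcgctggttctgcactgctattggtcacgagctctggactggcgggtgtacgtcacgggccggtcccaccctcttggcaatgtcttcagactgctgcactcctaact
Lypd1: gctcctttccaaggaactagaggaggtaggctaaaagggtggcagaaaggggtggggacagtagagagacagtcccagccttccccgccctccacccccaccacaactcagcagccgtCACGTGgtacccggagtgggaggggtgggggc
Dusp1: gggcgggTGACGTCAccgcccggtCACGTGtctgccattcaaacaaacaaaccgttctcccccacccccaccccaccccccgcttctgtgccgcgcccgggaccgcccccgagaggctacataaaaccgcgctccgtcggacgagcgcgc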

How the data were processed

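The table holds FPKM made by the authors, 1 column for each of 18 libraries, and 0 columns of other samples. The submitters' processing notes name Bowtie and mm9, without roles. Program versions, the tool that computed the FPKM, its annotation, strand handling and read numbers are not stated there, so reads of overlapping genes cannot be told apart and no counting interval can be given. Header numbers were matched to the labels' sample numbers. With 3 mice per group, p-values measure the spread between these mice.

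FPKM were transformed to log2(FPKM + 1), which understates changes of low genes, and 13975 of 29942 genes with a mean of at least 1 FPKM were fitted in R 4.3.3 with limma 3.58.1 (6 group means, variance trend, 12 residual and 2.26 prior degrees of freedom). Adjusted p values are Benjamini-Hochberg over all tested genes, with a threshold of 0.05. The fit was tested on simulated data. Alternatives were the pseudocount, low-value filters, 2 scalings, robust moderation, a replicate block, sample number ranges, single-day fits and leaving out each library. Figures used matplotlib 3.10.9.

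Members and lists were chosen with earlier results of these data known. All members were named. Of the other striosome- and matrix-enriched lists, genes past the threshold or else those with the smallest unadjusted p in the mean of 3 days were named, up to 4 each. Oprm1, and Pdyn and Sv2b by day, were chosen after their values were seen. Fos and Btg2 were the check of exposure. The same rule covered the other lists (general projection neuron, cortical glutamatergic, septal and pallidal, choroid plexus, astrocyte, oligodendrocyte, oligodendrocyte precursor, microglia, endothelial), which are given as lists. In the mean of 3 days their median log2 differences were -0.05, -0.22, 0.11, 0.32, 0.04, 0.03, 0.09, 0.05 and 0.01, with 0 genes past the threshold in limma. Most of their genes were above 0 in all libraries; Emx1, Kcne2, Sostdc1 and Prph were listed at 0 in 1 library and Folr1 in 3. Promoter windows came from RefSeq tables of GRCm38.p6, not the files' build, so no positions in mm9 are given.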

Additional observations from a re-analysis of the deposited data

How the results depend on the processing

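In 28 other settings, 10 of processing and 18 leaving out 1 library, no marker passed the threshold in any of the 7 comparisons (187 counts, each 0; smallest adjusted p 0.2406). Of 955 recomputed marker differences 47 changed sign; none was past the threshold in either setting, and the largest original size among them was 0.1468 (Calb1, day 1). Kremen1 on day 1 became -0.004 and -0.01 with median-of-ratios scaling and quantile normalization, and Bach2 -0.003 with the latter. The day 21 difference of the striosome mean went from -0.01 to 0.003 and 0.01 under these scalings. The Tshz1 difference ran from -0.36 to -0.20 on day 1 and from 0.14 to 0.32 on day 21. With sample number ranges as a covariate, its day 1 value was -0.26 (unadjusted p = 0.0299). Scalings moved the median of all genes by less than 0.1. In a check chosen after seeing the data, the groups that did not overlap stayed at 3 markers on day 1 and 0 on day 7. On day 21 they went from 0 to 1 with median-of-ratios scaling (Id4, higher after amphetamine), and the cause was not tested. The Id4 groups barely parted there, with a highest saline value of 6.980 and a lowest amphetamine value of 6.985 on the log2 scale. The share of all tested genes is given only for the values as deposited, so these counts have no such share beside them.

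With the replicate number as a block, 0 of the 9 markers passed in each of the 7 comparisons, with smallest adjusted p values of 0.6495, 1 and 0.8522 on days 1, 7 and 21, 0.9989 in the mean, 0.7519 for the interaction and 0.7765 and 0.3657 for the day effects in saline and amphetamine mice. Nr4a1 in the mean of 3 days went to an adjusted p of 0.1443. Same-numbered libraries of the 2 treatments deviated together with r between -0.0853 and 0.145, and the labels state no pairing, so the numbers were not taken as pairs.

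Reading the other striosome-enriched list without Nr4a1, and without Nr4a1 and Pdyn, was also a choice made after seeing the data. Nr4a1 kept its direction in all 26 settings run for it (0.75 to 0.92). It passed in 3 of the 18 fits that left out a library. Fos and Btg2 passed in 26 of 26. The depth of the libraries is unknown, which limits what can be said of low genes such as Bach2 and Oprm1.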
